A study of Rattus norvegicus with 30 samples.

Results

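The T cell receptor complex and its proximal signaling genes are described here in the kidney of rats moved from a low salt (LS) to a high salt (HS) diet. The members were the 10 rows of the deposited table whose gene name was *Cd3d*, *Cd3e*, *Cd3g*, *Cd4*, *Cd8a*, *Cd8b*, *Cd2*, *Cd5*, *Lck* or *Zap70*, out of 32545 genes. All 10 were found, each once. In the cortex (Cx) 8 of the 10 passed the filter on low counts in the comparison of 21 d of HS with LS, and all 8 rose, by 1.39 to 3.95 on the log2 scale, where 18.9% of all genes tested rose. Of these 8, *Cd3e*, *Cd3g* and *Cd8b* had no LS library at the level the filter asks for and passed it through their HS21 libraries, so the count of 8 is a description. In the fit without the filter all 10 rose, where 12.4% of all genes in that fit did. In the outer medulla (OM) 9 members were tested at that time and *Cd2* rose, where 0.639% of all genes tested did. The ratios of the 9 to LS were between 1.03 and 2.64 on the log2 scale.

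The study measured poly(A) RNA by mRNAseq in the Cx and the OM of the right kidney of male Sprague-Dawley (SD) rats, an outbred strain with normal blood pressure. LS rats ate an AIN-76A diet with 0.4% NaCl, and after it the HS14 group was given 4.0% NaCl for 14 d and the HS21 group for 21 d. Each of the 6 groups of tissue and diet held 5 libraries, 30 in all. The methods describe the collection of kidneys together with surgery that placed a flow probe and catheters on the left renal vessels and do not give the age at which LS kidneys were taken. Other text of the study speaks of a separate group of rats for the tissue. Age, and time since any surgery, cannot be told apart from days on the diet.

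T cells recognise peptides through the T cell receptor, whose antigen-binding chains pass the signal into the cell through the CD3 chains (*Cd3d*, *Cd3e*, *Cd3g*) and the zeta chain. The coreceptors *Cd4* and *Cd8a*/*Cd8b* bind the presenting MHC molecule and bring in the kinase *Lck*. *Lck* phosphorylates the CD3 and zeta chains, on which *Zap70* docks and becomes active. *Cd2* is an adhesion receptor that strengthens the contact with the presenting cell, and *Cd5* dampens the receptor signal. The normal kidney holds few T cells, and salt loading is known to bring T cells and macrophages into the kidney of salt-sensitive rats. In the rat, *Cd4* is also expressed by monocytes and macrophages, and *Cd8a* by natural killer cells. In bulk tissue fewer or more T cells and less or more RNA per T cell cannot be told apart.

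The counts on genes summed to 12748841 to 21842843 per library, except 5408126 in OM HS14 replicate 10. Facts of single libraries touch the OM results. OM LS replicate 2 carried the most cortical transcripts of the OM libraries, with the proximal tubule phosphate transporter *Slc34a1* at 12.07 log2 CPM (counts scaled to library size) and the distal tubule transporter *Slc12a3* at 8.44 log2 CPM, against at most 10.54 and 5.69 log2 CPM in the other OM libraries, and it was the lowest of its group in all 10 members. OM HS14 replicate 10, the library with the fewest counts, was the lowest of its group in 7 members. A count of 0 in it allows up to 3 reads, or 0.516 CPM, against 0.15 to 0.252 CPM in the other 29 libraries, and such limits cover counting error only. Counts of members called in the OM are given with and without these libraries where this was refitted, and the gene lists were not refitted without them.

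On the Rnor_6.0 build of the deposited table, the 3 CD3 genes lie together on chromosome 8, *Cd3g* (ENSRNOG00000015945) at chr8:49274960-49280901, *Cd3d* (ENSRNOG00000015994) at chr8:49282460-49287110 and *Cd3e* (ENSRNOG00000016069) at chr8:49297608-49308806. *Cd3g* and *Cd3d* are read away from each other with 1558 bases between them, and *Cd3d* and *Cd3e* end toward each other 10497 bases apart. The coreceptor genes *Cd8b* (ENSRNOG00000007129, chr4:99185885-99202023) and *Cd8a* (ENSRNOG00000007178, chr4:99239115-99243351) are neighbours on the forward strand of chromosome 4, 37091 bases apart, and *Cd4* (ENSRNOG00000016294) lies at chr4:157383052-157408176. *Lck* (ENSRNOG00000009705) is at chr5:147750973-147761983, *Zap70* (ENSRNOG00000016995) at chr9:43331155-43353113, *Cd2* (ENSRNOG00000015821) at chr2:203666637-203680083 and *Cd5* (ENSRNOG00000020872) at chr1:226770744-226791879. All 10 are annotated as protein coding. No other row of the table overlaps a member, so the unstranded counting does not mix a member with a neighbour.

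The promoters of the 3 CD3 genes are shown because these genes share a cluster and were among the members with the largest ratios. Each sequence runs 5′ to 3′ on the gene's own strand from 250 bases before to 50 after the RefSeq start on the GRCr8 assembly, at chr8:54185269-54185568 (forward strand) for *Cd3d*, chr8:54211721-54212020 (reverse strand) for *Cd3e* and chr8:54183869-54184168 (reverse strand) for *Cd3g*. Capitals mark matches on either strand to an ETS core (AGGAAG) or an E-box (CAGNTG).
Cd3d: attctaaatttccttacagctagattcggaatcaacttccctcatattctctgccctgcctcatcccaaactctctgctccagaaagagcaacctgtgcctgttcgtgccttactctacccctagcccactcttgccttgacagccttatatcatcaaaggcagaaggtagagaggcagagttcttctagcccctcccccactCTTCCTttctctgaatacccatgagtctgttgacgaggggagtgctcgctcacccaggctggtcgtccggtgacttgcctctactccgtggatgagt
Cd3e: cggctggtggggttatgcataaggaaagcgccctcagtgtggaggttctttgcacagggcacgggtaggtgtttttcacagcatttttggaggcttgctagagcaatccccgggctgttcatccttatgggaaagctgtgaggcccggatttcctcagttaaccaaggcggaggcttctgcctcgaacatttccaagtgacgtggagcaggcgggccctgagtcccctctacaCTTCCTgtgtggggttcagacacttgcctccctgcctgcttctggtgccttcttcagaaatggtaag
Cd3g: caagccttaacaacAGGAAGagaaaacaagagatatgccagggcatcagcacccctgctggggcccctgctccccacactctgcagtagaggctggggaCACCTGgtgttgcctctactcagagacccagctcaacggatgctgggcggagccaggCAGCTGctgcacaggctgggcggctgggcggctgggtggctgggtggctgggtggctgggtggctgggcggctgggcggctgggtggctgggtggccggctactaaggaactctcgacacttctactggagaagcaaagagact
Each of the 3 windows held 1 match to the ETS letters, which 34.5% of 33465 promoters of this length hold. The *Cd3g* window also held E-box letters, present in 50.2% of promoters. No letters of a RUNX core (TGTGGT, in 17.3% of promoters) or a GATA core (AGATAA, in 11.6%) were in these windows. RefSeq promoters were matched for 8 members, *Lck* with 2 starts. The windows of *Cd5*, *Lck* (at each of its 2 starts) and *Zap70* held ETS and E-box letters, and 1 *Lck* window also held RUNX letters. That of *Cd2* held RUNX and E-box letters, and that of *Cd8a* held none of the 4 motifs. A match of letters is a description and not a bound site.

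Levels between genes were compared per gene length, as the deposited FPKM. *Cd4* was the most abundant member in every group, at 14.8 ± 2.22 FPKM (SD, *n* = 5) in Cx LS and 16.3 ± 7.37 FPKM in OM LS, above every library of the next member. Below it on LS stood *Lck* (1.49 ± 0.278 FPKM for the Cx, 1.44 ± 0.726 FPKM for the OM) and *Cd8a* (1.36 ± 0.414 and 1.36 ± 0.621 FPKM), whose libraries overlapped. The CD3 chains were scarce on LS, with *Cd3e* at 0.237 ± 0.15 FPKM in Cx LS and 0.541 ± 0.364 FPKM in OM LS. *Cd8b* and *Cd5* were the lowest, at 0.131 ± 0.093 and 0.0507 ± 0.0374 FPKM in Cx LS. Past *Cd4*, each neighbour in the LS order overlapped the next in both tissues. At HS21 the order in the Cx was *Cd4* (38.4 ± 15.7 FPKM), *Lck* (7.17 ± 4.86), *Cd2* (6.62 ± 4.26), *Cd3g* (4.85 ± 2.6), *Cd8a* (4.15 ± 1), *Cd3d* (3.82 ± 2.72), *Cd3e* (3.73 ± 2.63), *Zap70* (2.81 ± 1.7), *Cd8b* (0.798 ± 0.125) and *Cd5* (0.378 ± 0.342). Again *Cd4* alone stood clear of the member after it.

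**Figure D1:**
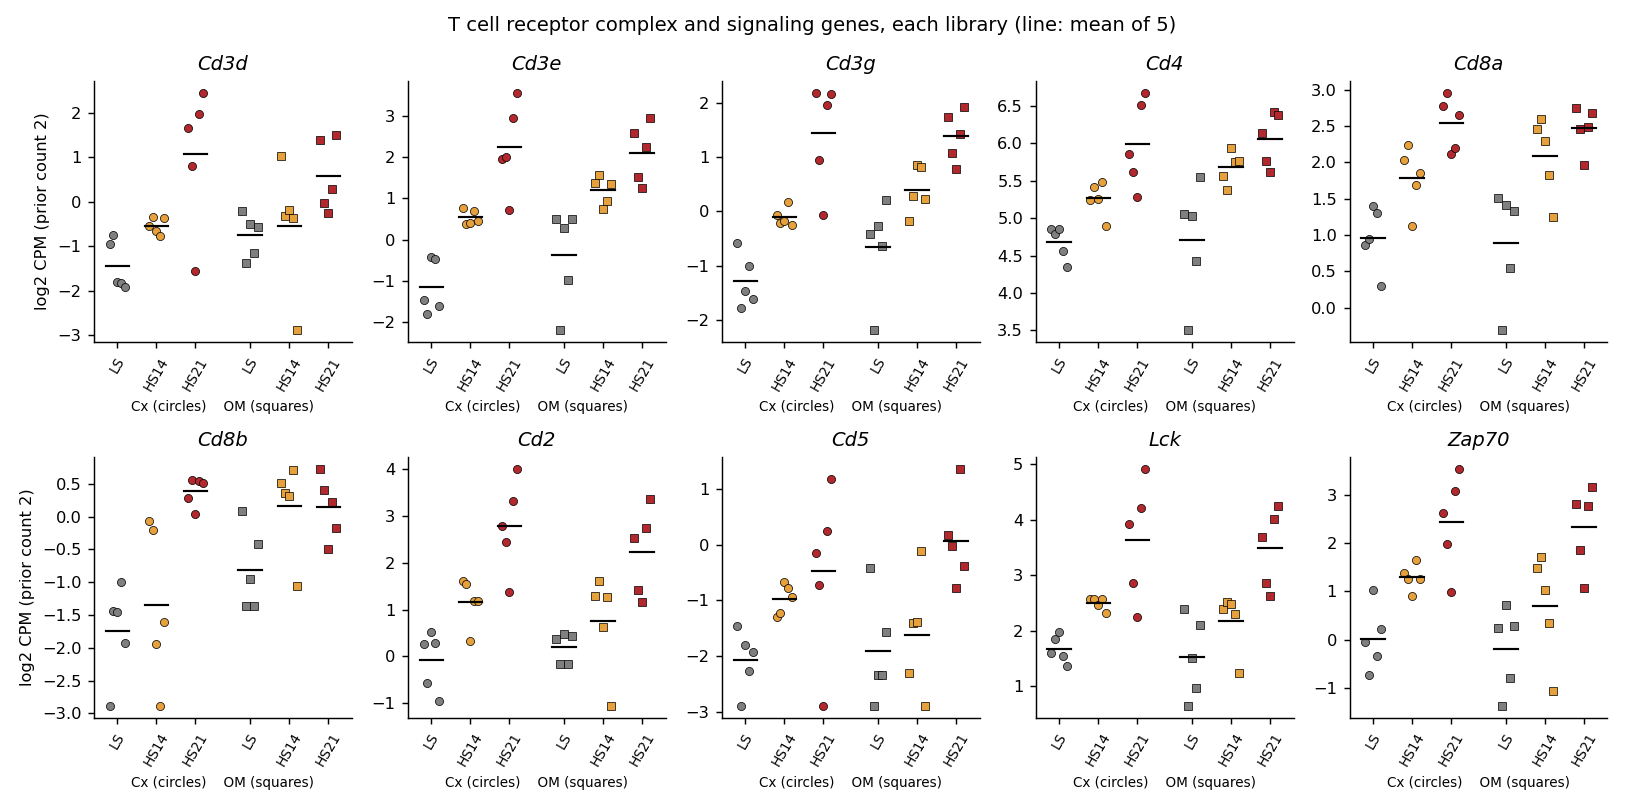
Each panel shows 1 gene, with log2 CPM (prior count 2) on the vertical axis and the 6 groups of tissue and diet on the horizontal axis. Circles are Cx libraries, squares OM libraries, grey LS, orange HS14 and red HS21, and the line is the mean of 5. Vertical ranges differ between panels. In *Lck* the Cx HS14 libraries sit close together, and the 5 HS21 libraries spread upward from them.

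In the Cx, the HS14 and HS21 groups are each compared with the same 5 LS libraries. At HS21 the CD3 chains had the largest ratios. *Cd3e*, which pairs with both other CD3 chains, was at 0.229, 0.155, 0.609, 0.583 and 0.192 CPM in the LS libraries, at 1.57, 1.17, 1.18, 1.5 and 1.22 CPM at HS14 and at 3.77, 3.87, 1.51, 7.49 and 11.6 CPM at HS21. Every HS library lay above every LS library. It rose 3.68-fold at HS14 (log2 ratio 1.88, SE 0.35, adjusted *P* = 0.0227) and 15.5-fold at HS21 (3.95, SE 0.59, adjusted *P* = 0.000408). These ratios rest on 2 to 8 reads per LS library.

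*Cd3g*, the gamma chain, was at 0.534, 0.155, 0.228, 0.365 and 0.192 CPM on LS, at 0.821, 0.731, 0.746, 0.998 and 0.709 CPM at HS14 and at 4.4, 1.8, 0.824, 3.75 and 4.36 CPM at HS21. Both HS groups lay wholly above LS. The ratio at HS14 was 1.42 on the log2 scale (SE 0.34, adjusted *P* = 0.0516), and at HS21 the gene rose 9.96-fold (3.32, SE 0.51, adjusted *P* = 0.000508). *Cd3d*, the delta chain, was below the filter in both comparisons. Its read counts were 5, 6, 2, 2 and 2 on LS, 8, 9, 8, 9 and 10 at HS14 and 47, 24, 3, 58 and 78 at HS21, where replicate 13 fell among the LS libraries and the other 4 lay above them. Without the filter its log2 ratio at HS21 was 3.42 (SE 0.68, adjusted *P* = 0.00235).

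Among the coreceptors, *Cd4* was at 28.8, 27.4, 28.7, 23.4 and 20.1 CPM on LS, at 37.8, 42.7, 38.2, 44.8 and 29.7 CPM at HS14 and at 57.8, 49.0, 38.9, 91.5 and 102 CPM at HS21. No HS library overlapped LS. It rose 1.49-fold at HS14 (log2 ratio 0.57, SE 0.12, adjusted *P* = 0.0371) and 2.61-fold at HS21 (1.39, SE 0.25, adjusted *P* = 0.00112), the smallest ratios of the tested members in either comparison. *Cd8a*, the alpha chain shared by both forms of CD8, was at 1.68, 1.78, 2.51, 2.33 and 1.09 CPM on LS, at 3.97, 4.6, 2.05, 3.09 and 3.48 CPM at HS14 and at 6.7, 7.61, 4.19, 4.47 and 6.13 CPM at HS21. HS14 replicate 8 overlapped LS, and HS21 did not. It rose 3.06-fold at HS21 (1.62, SE 0.25, adjusted *P* = 0.00051), and its HS14 ratio was 0.85 (SE 0.27, adjusted *P* = 0.115).

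*Cd8b*, the beta chain of the heterodimer found on cytotoxic T cells, was counted at 0, 3, 3, 5 and 2 reads on LS, at 12, 10, 2, 0 and 3 reads at HS14 and at 17, 20, 13, 20 and 19 reads at HS21. The HS14 libraries were split, with 2 above all LS libraries and 3 among them, while HS21 lay wholly above LS. It was the member with the least spread at HS21, with a coefficient of variation of 16.2% in CPM, and it rose 5.94-fold there (2.57, SE 0.43, adjusted *P* = 0.000819). At 13 to 20 reads per library, counting error alone can give a spread that large. At HS14 it was below the filter.

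*Cd2*, the adhesion receptor, was at 1.07, 0.543, 1.29, 1.09 and 0.385 CPM on LS, at 2.94, 2.78, 1.12, 2.15 and 2.13 CPM at HS14 and at 6.76, 5.34, 2.47, 9.92 and 16.1 CPM at HS21. One HS14 library, replicate 8, lay within the LS range. It rose 9.14-fold at HS21 (3.19, SE 0.50, adjusted *P* = 0.000518) and had a log2 ratio of 1.32 at HS14 (SE 0.35, adjusted *P* = 0.0717). *Cd5*, below the filter in both comparisons, was counted at 3, 0, 2, 1 and 2 reads on LS, at 4, 4, 8, 9 and 6 at HS14 and at 12, 7, 0, 16 and 31 at HS21. HS21 replicate 13 had no *Cd5* read and the other 4 lay above LS. Without the filter its log2 ratio at HS21 was 2.81 (SE 0.85, adjusted *P* = 0.0273).

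Of the kinases, *Lck* was at 2.9, 3.49, 3.81, 2.77 and 2.44 CPM on LS, at 5.82, 5.77, 5.41, 5.79 and 4.83 CPM at HS14 and at 14.9, 7.08, 4.6, 18.4 and 30.1 CPM at HS21. Both HS groups lay above LS, and HS21 replicate 13 lay below all HS14 libraries. It rose 1.77-fold at HS14 (0.82, SE 0.15, adjusted *P* = 0.0218) and 4.82-fold at HS21 (2.27, SE 0.44, adjusted *P* = 0.00191). Its coefficient of variation was 7.62% at HS14 and 67.4% at HS21. At 75 to 116 reads per HS14 library, counting error alone can give a spread as large as the first value. *Zap70* was at 0.839, 0.466, 1.9, 0.656 and 1.03 CPM on LS, at 2.46, 2.27, 1.74, 2.99 and 2.25 CPM at HS14 and at 6.0, 3.81, 1.85, 8.35 and 11.5 CPM at HS21. LS replicate 3 lay above the lowest library of each HS group. It rose 6.33-fold at HS21 (2.66, SE 0.50, adjusted *P* = 0.00154), and its HS14 ratio was 1.24 (SE 0.32, adjusted *P* = 0.0679).

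Of the 7 members tested at Cx HS14, *Cd3e*, *Cd4* and *Lck* rose and none fell by edgeR's quasi-likelihood test, where 1.14% of the 14181 genes tested were raised. All 7 were higher with an unadjusted *P* under 0.05, as were 9.05% of all genes tested, and the groups of 5 of the 10 members did not overlap, against 3.06% of all genes tested. *Cd3e* and *Cd3g* passed the filter through their HS14 libraries alone, and *Cd5*, among the 5 without overlap, was below it. The counts over the 7 and the count of 5 are descriptions. Over all 10 members, in the fit without the filter, the median log2 ratio was 1.18. These calls depended on single libraries. Without LS replicate 5, HS14 replicate 8 or HS14 replicate 9 no member was called, without LS replicate 1 *Cd3g* alone, without LS replicate 2 *Lck* alone and without LS replicate 4 *Cd3e* alone. *Cd4* was also lost without HS14 replicate 6, HS14 replicate 7 or LS replicate 3, and *Zap70* was gained without the last of these.

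At Cx HS21 all 8 tested members rose, where 18.9% of the 14299 genes tested were raised. *Cd3e*, *Cd3g* and *Cd8b* passed the filter through HS21 alone and had to be higher there. The count over the 8, and that of groups without overlap below, carry no weight as support. In the fit without the filter all 10 rose, where 12.4% of its 21571 genes did. The groups of 7 members did not overlap, against 12.6% of all genes tested, and the other 3 overlapped through HS21 replicate 13 (*Cd3d* and *Cd5*) or through that library and LS replicate 3 (*Zap70*). The median log2 ratio of all 10 in the fit without the filter was 2.74. Each of the 8 was called in all 10 fits that left out 1 library. HS21 replicate 13 was the lowest of its group in all 10 members and replicate 15 the highest in 7.

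**Figure D2:**
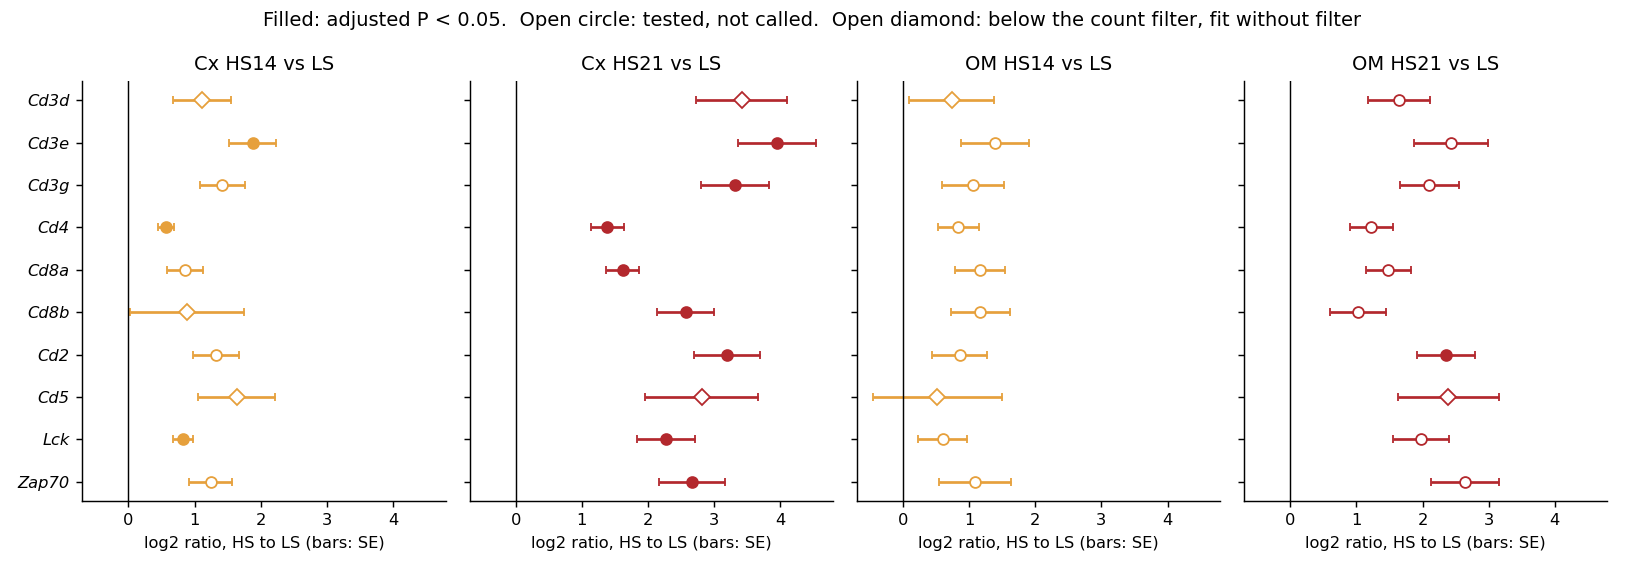
The 4 panels show the log2 ratio of HS to LS (horizontal axis) of the 10 genes in each tissue and time, with bars for the SE. Filled points had an adjusted *P* under 0.05, open circles were tested and did not, and open diamonds were below the count filter and come from the fit without it. The ratios ran from 1.39 to 3.95 for the 8 filled genes of Cx HS21, and no point is filled in OM HS14.

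In the OM the members' ratios to LS were above 0 at both times, and *Cd2* passed the test at HS21. *Cd2* was at 1.17, 0.755, 1.27, 0.757 and 1.22 CPM on LS, at 2.32, 2.9, 1.42, 2.28 and 0.344 CPM at HS14 and at 5.63, 2.53, 2.1, 6.62 and 10.2 CPM at HS21. The HS21 libraries lay above LS, and OM HS14 replicate 10 lay below it. The gene rose 5.12-fold at HS21 (2.36, SE 0.44, adjusted *P* = 0.0431), and its log2 ratio at HS14 was 0.86 (SE 0.42, adjusted *P* = 0.945).

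*Cd3e* was at 1.29, 0.0839, 1.08, 0.378 and 1.29 CPM in the OM on LS, at 2.45, 2.84, 1.54, 1.78 and 2.41 CPM at HS14 and at 5.8, 2.74, 2.23, 4.56 and 7.61 CPM at HS21. Neither HS group overlapped LS. The log2 ratios were 1.39 at HS14 (SE 0.51, adjusted *P* = 0.693) and 2.43 at HS21 (SE 0.56, adjusted *P* = 0.0817). *Cd3g* was at 0.613, 0.0839, 0.698, 0.505 and 1.02 CPM on LS, at 0.75, 1.09, 1.66, 1.64 and 1.03 CPM at HS14 and at 3.22, 1.97, 1.59, 2.55 and 3.65 CPM at HS21, where HS21 lay above LS (2.10, SE 0.44, adjusted *P* = 0.0671). *Cd3d* counts were 12, 3, 9, 5 and 8 on LS, 28, 11, 12, 9 and 0 at HS14 and 42, 12, 11, 18 and 43 at HS21, which overlapped (1.65, SE 0.47, adjusted *P* = 0.157).

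*Cd4* was at 33.0, 11.2, 32.7, 21.4 and 46.5 CPM in the OM on LS, at 47.1, 41.5, 61.0, 53.9 and 54.4 CPM at HS14 and at 70.2, 54.4, 48.8, 85.9 and 83.2 CPM at HS21. HS14 overlapped LS through LS replicate 5, and HS21 did not overlap it. Its log2 ratios were 0.84 (SE 0.31, adjusted *P* = 0.693) and 1.22 (SE 0.32, adjusted *P* = 0.128). *Cd8a* was at 2.7, 0.672, 2.54, 1.32 and 2.37 CPM on LS, at 5.38, 5.93, 4.74, 3.42 and 2.24 CPM at HS14 and at 6.56, 5.33, 3.76, 5.47 and 6.29 CPM at HS21, of which HS21 did not overlap LS (1.48, SE 0.34, adjusted *P* = 0.0816). *Cd8b* was at 15, 3, 6, 4 and 9 reads on LS, at 19, 19, 18, 21 and 2 reads at HS14 and at 26, 17, 9, 17 and 12 reads at HS21, and both HS groups overlapped LS.

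*Lck* was at 5.09, 1.43, 2.73, 1.83 and 4.14 CPM in the OM on LS, at 5.11, 5.57, 5.42, 4.77 and 2.24 CPM at HS14 and at 12.8, 7.09, 6.05, 16 and 18.9 CPM at HS21. HS21 lay above both other groups. Its log2 ratio to LS was 0.60 at HS14 (SE 0.37, adjusted *P* = 0.994) and 1.97 at HS21 (SE 0.42, adjusted *P* = 0.0704). *Zap70* was at 1.04, 0.252, 1.52, 0.441 and 1.09 CPM on LS, at 2.66, 3.15, 1.91, 1.14 and 0.344 CPM at HS14 and at 6.92, 3.51, 1.98, 6.68 and 8.81 CPM at HS21. HS21 did not overlap LS, and the log2 ratio there was 2.64 (SE 0.52, adjusted *P* = 0.0521), the largest of the 9 tested. *Cd5*, below the filter, was counted at 10, 0, 1, 1 and 3 reads on LS, at 1, 4, 4, 11 and 0 at HS14 and at 17, 12, 7, 40 and 10 reads at HS21.

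At OM HS21, 1 of the 9 tested members rose and none fell, where 0.639% of the 14555 genes tested were raised. All 9 were higher with an unadjusted *P* under 0.05, as were 6.95% of all genes tested, and the groups of 7 members did not overlap, against 2.64% of all genes tested. The median log2 ratio of all 10 without the filter was 2.04. *Cd2* stayed past the threshold when 1 library was dropped only in 2 fits of 10, those without HS21 replicate 12 or replicate 13, and *Lck* and *Zap70* were called too without replicate 13. Without OM LS replicate 2, *Cd3g* was called instead (1.85, SE 0.33, adjusted *P* = 0.0443) and *Cd2* had an adjusted *P* of 0.0674. Without any 1 of OM LS replicates 1, 3, 4 and 5 or OM HS21 replicates 11, 14 and 15 no member was called. DESeq2 called 8 of the 10, where it raised 3.07% of the 18097 genes it tested.

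At OM HS14, 0 of the 8 tested members were called by edgeR and 0 by DESeq2, where 0.00694% of the 14417 genes tested were raised. Of the 8, 5 were higher with an unadjusted *P* under 0.05, as were 4.28% of all genes tested, and *Cd3e* was the 1 member whose groups did not overlap, against 1.05% of all genes tested. The median log2 ratio of all 10 without the filter was 0.96. With both OM LS replicate 2 and OM HS14 replicate 10 left out, again 0 members were called and 7 of 9 had an unadjusted *P* under 0.05. The share of all genes at that level was not counted in this refit, so the 7 is a description. The adjusted *P* values then ran lower, for *Cd8a* from 0.608 to 0.208 (log2 ratio 1.10, SE 0.27).

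The third week on HS was compared directly by setting HS21 against HS14, which shares these groups with the comparisons above. In the Cx 6 of 8 tested members were higher at HS21, all but *Cd8a* and *Cd8b*, where 6.50% of the 14395 genes tested were raised and 9.69% lowered. The log2 ratios were 2.08 for *Cd3e* (SE 0.45, adjusted *P* = 0.0143), 1.90 for *Cd3g* (SE 0.41, adjusted *P* = 0.014), 1.87 for *Cd2* (SE 0.44, adjusted *P* = 0.0184), 1.44 for *Lck*, 1.42 for *Zap70* and 0.82 for *Cd4*. *Cd8a* stood at 0.76 (SE 0.24, adjusted *P* = 0.051) and *Cd8b* at 1.72 (SE 0.61, adjusted *P* = 0.0732). *Cd8b* was the 1 member whose groups did not overlap, against 3.59% of all genes tested. For the others HS21 replicate 13 lay among or below the HS14 libraries.

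*Cd3e* and *Cd3g* kept their calls whichever of the 10 libraries was dropped from this comparison. *Cd2* was lost without HS14 replicate 8 or replicate 9. *Cd4* was called in 2 of these fits, and *Lck* and *Zap70* in 3. The number called was 2 without HS14 replicate 8 or 9, 3 without HS14 replicate 7 or without HS21 replicate 11, 14 or 15, and 8 without HS21 replicate 13. *Cd8b* was called without HS14 replicate 6, and *Cd8a* without HS21 replicate 13. *Cd3d* entered the test and was called without HS14 replicate 10 or without HS21 replicate 13.

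In the OM 0 of 9 members differed between HS21 and HS14 by edgeR and 0 by DESeq2, and 0.00% of the 14499 genes tested were raised. Of the 9, 5 were higher with an unadjusted *P* under 0.05, as were 2.32% of all genes tested. *Lck* was the 1 member without overlap (log2 ratio 1.37, SE 0.34, adjusted *P* = 0.961), against 0.435% of all genes tested. The ratios ran from -0.14 (SE 0.37) for *Cd8b* to 1.55 (SE 0.51) for *Zap70*. Without OM HS14 replicate 10, 0 members were called and 7 of 10 had an unadjusted *P* under 0.05. The share of all genes at that level was not counted in that refit.

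The tissues were compared on LS, and then for the change with HS. On LS, 0 of 5 tested members differed between the OM and the Cx by edgeR and 0 by DESeq2, none with an unadjusted *P* under 0.05, where 21.3% of the 14295 genes tested were higher in the OM and 19.5% lower. The log2 ratios of OM to Cx of these 5 were between -0.16 (*Zap70*, SE 0.49) and 0.24 (*Cd2*, SE 0.34), and 0 members were called without OM LS replicate 2 as well. The members below the filter had higher ratios in the fit without it, from 0.71 (*Cd5*, SE 0.90) to 1.32 (*Cd8b*, SE 0.62). *Cd3e* was at 1.23 there (SE 0.63), *Cd3g* at 0.99 (SE 0.54) and *Cd3d* at 0.94 (SE 0.48). Their groups overlapped and 0 members were called in that fit. The change at HS14 was not shown to differ between tissues for any of 8 members (0.00% of all 15091 genes were called higher and 0.00% lower, and 0 members had an unadjusted *P* under 0.05). At HS21, 0 of 10 members were called for the tissue by diet term, where 0.448% of the 15194 genes tested were higher and 0.217% lower, and DESeq2 called 0. *Cd8b* was the 1 member with an unadjusted *P* under 0.05 (0.025), with a change in the OM lower than in the Cx (log2 difference -1.55, SE 0.64, adjusted *P* = 0.253). At that level 8.99% of all genes tested were lower in the OM and 6.59% higher. The number of members under 0.05 ran from 0 to 4 with 1 library left out, with 4 without Cx HS21 replicate 13, 3 without OM LS replicate 2, 2 without Cx LS replicate 2 or OM HS21 replicate 11 or 15, and 0 without Cx LS replicate 5 or OM LS replicate 1. The share of all genes under 0.05 was not counted in those fits. With no library left out, the differences ran from -1.78 (*Cd3d*, SE 0.90) to -0.032 (*Zap70*, SE 0.77). Without OM LS replicate 2 the members called stayed at 0 while 729 genes were called higher and 546 lower, against 68 and 33 with it.

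The level of 1 gene relative to another in the same library was compared in 16 exact two-sided permutation tests of 5 against 5 libraries, with *P* adjusted over the 16. The smallest *P* such a test can give is 0.00794. *Cd3e*, which had the largest Cx HS21 ratio of the tested members, stands in every pair, and the pairs were chosen with earlier results of these data known. The tests restate the ratios above library by library and are no independent support for them. *Cd4* minus *Cd3e*, as a difference in log2 CPM, was 6.32, 6.57, 5.28, 5.03 and 5.95 in the Cx on LS, 4.47, 5.04, 4.87, 4.78 and 4.46 at HS14 and 3.89, 3.62, 4.57, 3.59 and 3.13 at HS21. The HS21 libraries lay below LS without overlap. The mean was lower by 1.11 at HS14 (adjusted *P* = 0.0423) and by 2.07 at HS21 (adjusted *P* = 0.0317). In the OM it was 4.54, 5.69, 4.76, 5.39 and 5.03 on LS and 3.57, 4.25, 4.37, 4.2 and 3.43 at HS21, again without overlap, and the mean was lower by 1.12 (exact permutation, adjusted *P* = 0.0317). At OM HS14 the difference of the means was -0.60, with overlap (exact permutation, adjusted *P* = 0.162).

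*Cd8a* minus *Cd3e* was 2.32, 2.73, 1.83, 1.78 and 1.9 in the Cx on LS and 0.81, 0.95, 1.39, -0.73 and -0.9 at HS21. HS21 lay below LS without overlap, and replicates 14 and 15 were lowest. The difference between the means was -0.86 at Cx HS14 (exact permutation, adjusted *P* = 0.0476), -1.81 at Cx HS21 (adjusted *P* = 0.0317), -0.38 at OM HS14 (adjusted *P* = 0.339) and -0.91 at OM HS21 (adjusted *P* = 0.0423). Without OM LS replicate 2 the last was -0.75 (adjusted *P* = 0.0705), and its call was also lost without any 1 of OM LS replicates 1, 3 and 4 or OM HS21 replicates 11 and 15. *Zap70* minus *Cd3e* passed the adjusted threshold in none of its 4 comparisons, and its Cx HS21 difference was -0.97 (exact permutation, *P* = 0.0317, adjusted *P* = 0.0564).

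*Cd3e* was also set against *Ptprc*, which encodes CD45, carried by all leukocytes. *Cd3e* minus *Ptprc* was -6.27, -6.19, -5.07, -4.9 and -5.9 in the Cx on LS, -4.67, -5.13, -4.8, -4.77 and -4.39 at HS14 and -4.27, -4.2, -4.6, -3.7 and -3.5 at HS21. HS21 lay above LS without overlap. The mean was higher by 0.91 at HS14 (exact permutation, adjusted *P* = 0.0476) and by 1.61 at HS21 (adjusted *P* = 0.0317). In the OM the difference was 0.43 at HS14 (adjusted *P* = 0.317) and 0.73 at HS21 (exact permutation, adjusted *P* = 0.102). In all, 8 of the 16 tests passed the threshold, and 3 to 10 did with 1 library left out. The number was 4 without Cx HS14 replicate 6, 8, 9 or 10 or OM LS replicate 1, 2, 3 or 4, and 3 without OM HS21 replicate 11 or 15. Low *Cd3e* counts on LS enter each of these differences, and with a prior count of 0.5 in place of 2 the number was 9.

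**Figure D3:**
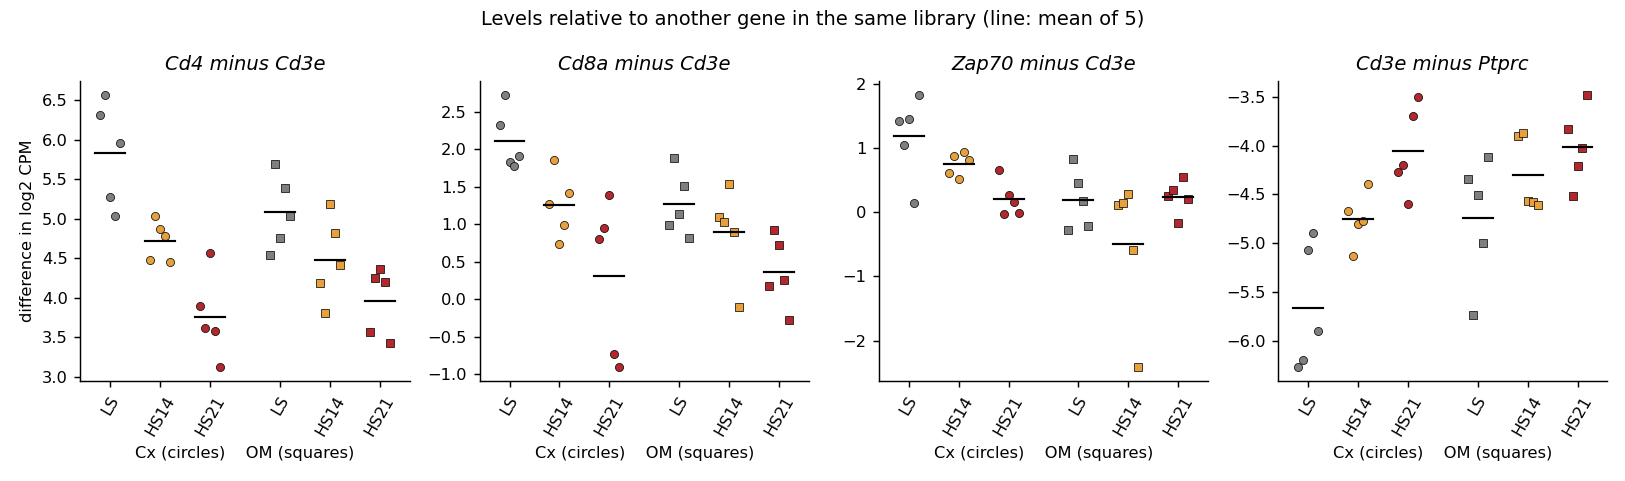
Each panel shows the difference in log2 CPM between 2 genes of the same library (vertical axis) for the 6 groups, with Cx libraries as circles, OM libraries as squares and the line at the mean of 5. *Cd4* minus *Cd3e* falls from a mean of 5.83 to 3.76 in the Cx, and *Cd3e* minus *Ptprc* moves from -5.67 to -4.06.

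Pan-leukocyte and macrophage markers rose beside the members at Cx HS21. All 5 pan-leukocyte genes rose at Cx HS21, by a median of 1.86 on the log2 scale and beside 18.9% of all genes tested, and *Ptprc* itself rose from 22.9 ± 3.44 to 84.0 ± 34.4 CPM (SD, *n* = 5; log2 ratio 1.86, SE 0.26, adjusted *P* = 0.000266). All 8 tested of 9 macrophage and monocyte markers rose too, by 1.05 to 1.89, and the sum of the 9 went from 125 to 166 CPM per library on LS to 224 to 778 CPM. These markers bear on *Cd4*, which macrophages of the rat share, and their part in its change was not tested. Of 5 natural killer and cytotoxic genes found of 7 listed, 4 were tested at Cx HS21 and *Nkg7* and *Klrd1* rose, with a sum of 5.9 to 8.62 CPM on LS and 7.9 to 33.5 CPM at HS21. Their part in the change of *Cd8a* was not tested. At OM HS21, where 0.639% of all genes tested were raised, 4 of 5 pan-leukocyte genes rose, 0 of 8 macrophage markers were called by edgeR (6 with an unadjusted *P* under 0.05) and 0 of 4 natural killer genes were called (3 with an unadjusted *P* under 0.05).

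B cell markers summed to 0.893 to 2.27 CPM at Cx HS21 and none of the 5 was tested there. Thymocyte markers summed to at most 0.638 CPM over the Cx libraries and 4.37 CPM over the OM libraries, and *Rag1* and *Rag2* were at 0 in all 5 libraries of Cx LS and of OM HS21. Neutrophil markers summed to 1.8 to 3.12 CPM on LS, 4.51 to 33.7 CPM at HS14 and 7.97 to 18.7 CPM at HS21 in the Cx. Fat markers summed to 6.4 to 11.9 CPM in Cx LS, 14.2 to 26.2 CPM in Cx HS21 and 20.8 to 132 CPM in the OM libraries. All 4 proximal tubule markers fell at Cx HS21, by a median of 0.82 on the log2 scale, where 20.5% of all genes tested fell. Both thick ascending limb markers rose there, where 18.9% of all genes tested rose. The part of tissue composition in the members' changes was not tested.

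The other genes of the T cell receptor pathway were read from a list of 41, of which 37 were found and the receptor constant genes *Trac*, *Trbc1* and *Trbc2* and the transcription factor *Nfatc1* were not analysed here. At Cx HS21, 20 of 31 tested genes rose and *Cd28* fell, beside the 18.9% raised among all genes, and the median log2 ratio was 0.86. *Cd247*, the zeta chain, rose most, from 0.358 ± 0.26 to 3.48 ± 2.29 CPM (3.26, SE 0.63, adjusted *P* = 0.00184). It had no LS library at the level the filter asks for and passed through its HS21 libraries, so it had to be higher there. The count of 20 is a description. *Lat*, the adaptor that *Zap70* phosphorylates, rose from 2.87 ± 0.692 to 11.9 ± 6.4 CPM (2.04, SE 0.36, adjusted *P* = 0.00115). *Cd28*, the costimulatory receptor, fell from 12.8 ± 1.78 to 5.93 ± 1.15 CPM (-1.13, SE 0.15, adjusted *P* = 0.000234). In OM LS it was at 0.585 ± 0.477 CPM. Its Cx LS level was far above that of *Cd247* and of *Cd3e* (0.354 ± 0.223 CPM), though CPM are not scaled to gene length. Which cells carried *Cd28* was not tested, so its fall is not a reading of T cells. *Plcg1* (-0.066, SE 0.068) and *Tec* (-0.087, SE 0.12), both present in many cell types, were the other 2 at the low end and were not called.

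At Cx HS14, 3 of 30 tested pathway genes rose, beside 1.14% of all genes tested, among them *Cd247* (1.78, SE 0.42, adjusted *P* = 0.0493) and *Ptprc*, which also stands in the pan-leukocyte list. There too *Cd247* passed the filter through its HS libraries alone. At OM HS21, 4 of 32 rose (0.639% of all genes tested), namely *Fyn*, *Ptprc*, *Ptpn6* and *Cd6*, and at OM HS14 0 of 29 were called by edgeR, with 7 at an unadjusted *P* under 0.05. *Cd247* stood at 1.92 on the log2 scale at OM HS21 (SE 0.43, adjusted *P* = 0.0785) and *Lat* at 1.19 (SE 0.33, adjusted *P* = 0.135). *Cd28* was not called in the OM (0.60, SE 0.51, adjusted *P* = 0.769).

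**Figure D4:**
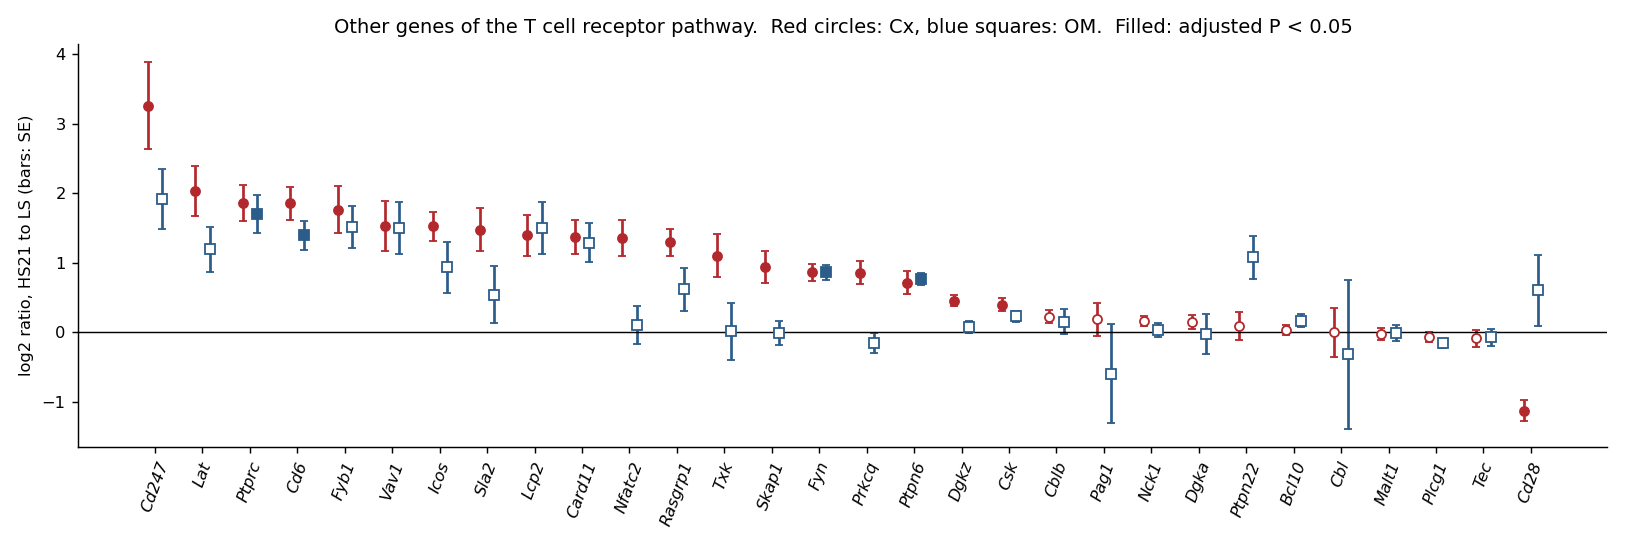
The vertical axis is the log2 ratio of HS21 to LS with bars for the SE, for 30 of the 31 pathway genes tested in the Cx, in the order of their Cx ratio. Red circles are the Cx and blue squares the OM, and filled points had an adjusted *P* under 0.05. *Cd247* is highest at 3.26 and *Cd28* lowest at -1.13 in the Cx.

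Of 24 genes that mark T cell subsets and activation, all found, 14 were tested at Cx HS21 and all 14 rose, beside the 18.9% raised among all genes tested. Which of them passed the filter through HS21 libraries alone was not counted, and the list was chosen with earlier results known. The counts for this list are descriptions. *Ccl5*, a chemokine of activated T and natural killer cells, rose from 3.57 ± 1.02 to 32.9 ± 26.6 CPM (3.19, SE 0.58, adjusted *P* = 0.00135). *Cxcr3*, the chemokine receptor of type 1 helper and effector T cells, rose from 0.72 ± 0.422 to 5.9 ± 4.96 CPM (3.01, SE 0.67, adjusted *P* = 0.0041). *Tbx21*, the type 1 lineage factor T-bet, rose from 1.11 ± 0.468 to 7.03 ± 4.34 CPM (2.64, SE 0.45, adjusted *P* = 0.000955). The smallest of the 14 were *Tcf7* (1.09, SE 0.31), *Gata3* (0.58, SE 0.12) and *S1pr1* (0.57, SE 0.13), and the last 2 were at 24.9 ± 1.29 and 18.1 ± 1.9 CPM on LS, being genes that kidney tubule or vessel cells also express.

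In the OM, 2 of 17 tested genes of this list rose at HS21 (0.639% of all genes tested), *Ccl5* (3.74, SE 0.66, adjusted *P* = 0.0377) and *Tbx21* (2.91, SE 0.52, adjusted *P* = 0.0392), and *Cxcr3* stood at 1.97 (SE 0.45, adjusted *P* = 0.0816). At Cx HS14, 1 of 12 rose (1.14% of all genes tested) and at OM HS14 0 of 15 were called by edgeR, with 3 at an unadjusted *P* under 0.05. The cytokine gene *Il17a* and the inhibitory receptor *Pdcd1* were at 0 in all 5 libraries of both LS groups, and *Il2* too.

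How far the members vary together within a group was read from log2 CPM centred on each group's mean, over the 30 libraries. Each member was set against the mean of the other 9, and Pearson's *r* was highest for *Lck* (0.92), *Zap70* (0.85), *Cd2* (0.82) and *Cd3e* (0.81), and lowest for *Cd8a* (0.68) and *Cd8b* (0.41). Among the 14063 other genes averaging 1 CPM or more, the 5 closest to the mean of the 10 members were *Ccdc88b* (*r* = 0.96), *Ctsz* (0.93), *Rac2* (0.93), *Cd37* (0.91) and *Laptm5* (0.91), and none of them is a T cell receptor gene. OM LS replicate 2 and HS21 replicate 13 of either tissue, each lowest of its group in all 10 members, enter every value. Low counts also limit *r*, as for *Cd8b* with 0 to 26 reads per library. The libraries share their depth and tissue mix, so these values are descriptions.

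Library order within HS21 was alike across members. HS21 replicate 13 was the lowest of its Cx group in all 10 members, and so was the OM HS21 library of the same number. The HS21 library numbered 15 was the highest in 7 members for the Cx and 6 for the OM. Neither the labels nor the methods say whether equal numbers mark the same rat. In the Cx, the summed level of the 10 members at HS21 was 105, 81.9, 55.4, 150 and 191 CPM for replicates 11 to 15, and replicate 13 also had the highest *Slc34a1* level of that group, at 12.63 log2 CPM against 12.03 to 12.16 in the others, within the LS range of 12.60 to 12.73. The 5 LS libraries summed to 25.9 to 39.6 CPM.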

How the data were processed

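Values came from 1 table for the whole series. Poly(A) libraries were not strand-specific. The authors aligned clean read pairs to Ensembl Rnor_6.0 with HISAT2 2.0.5 and counted them per gene with featureCounts 1.5.0-p3, and deposited raw counts. The deposited FPKM scale those counts by gene length and library size. Group means, fold changes and *P* values of the authors' own comparisons stand beside them and were not used. Gene length was given in bases by the authors.

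Libraries were grouped by tissue and diet labels, and p-values measure the spread between the 5 libraries of a group. Genes were tested with edgeR 4.0.16 in R 4.3.3 (filterByExpr, TMM, quasi-likelihood F-test) on the libraries compared, and in 20 libraries for the tissue by diet term. *P* was adjusted by Benjamini and Hochberg across the genes that passed the filter, and 0.05 was the threshold for a call. SE came from the same fit. Printed CPM used TMM over the 30 libraries, and log2 CPM a prior count of 2. Alternatives were DESeq2 1.42.0, limma 3.58.1 on log2(FPKM + 1), 2 other scalings, no filter and leaving out each library. The fits were tested on simulated data. No library was a copy: the chi-square per gene was at least 7.29 in 60 pairs.

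The members and gene lists were chosen with earlier results of these data known. Beside the 10 members, the genes named were the 3 largest and 3 smallest Cx HS21 ratios of the pathway and subset lists, the markers, and the 5 genes with the closest pattern. Genes named outside this rule (*Fyn*, *Ptpn6*, *Cd6* and single markers) were chosen after their values were seen. Some genes that this rule names are not reported here.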

Additional observations from a re-analysis of the deposited data

Results flagged for a closer look

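Of 60 groups of 5 libraries, 10 members in 6 groups, 2 had a library that stood apart from the others by more than 0.71 of the group's range, and chance gives about 1 in 20. *Cd5* in OM HS21 was highest in replicate 14, at 2.43 CPM from 40 reads, against 0.446 to 0.996 CPM in the others. *Lck* in OM HS14 was lowest in replicate 10, at 2.24 CPM from 13 reads in the library with the fewest counts, against 4.77 to 5.57 CPM.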

How the results depend on the processing

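The 8 members called at Cx HS21 kept their calls under every scaling, tool and left-out library. Of these, *Cd3e*, *Cd3g* and *Cd8b* passed the filter through HS21 alone. At Cx HS14, DESeq2 called 6 members in place of 3, and raised 500 of the 15705 genes it tested, against 162 of 14181. Leaving out 1 library gave 0 to 3 members, with 42 to 274 genes raised. At OM HS21, 1 member was called where 93 of 14555 genes were raised, against 0 with total counts (35 genes raised). DESeq2 called 8 members there (555 of 18097 genes raised) and limma on FPKM 2 (110 of 14555). With 1 library left out 0 to 3 were called there, with 9 to 159 genes raised. At Cx HS21 against HS14, 6 were called where 935 of 14395 genes were raised. With 1 library left out of that comparison the number was 2 to 8, with 337 to 1476 genes raised. Of the 16 ratio tests 8 passed, and 3 to 10 with 1 library left out. *Zap70* minus *Cd3e* at OM HS21 changed sign, from 0.046 to -0.048 with a prior count of 0.5 and to -0.049 on log2 FPKM, and ran from -0.069 to 0.20 with 1 library left out. *Cd8b* at OM HS21 against HS14 ran from -0.34 to 0.014 with 1 library left out. The cause was not tested.

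Scaling by total counts moved the median of all genes by 0.13 at Cx HS21 and split the calls into 4401 raised and 1653 lowered, against 2702 and 2936 with TMM, and the 8 members stayed raised. It moved the median by 0.13 at Cx HS21 against HS14 (2084 raised and 644 lowered, against 935 and 1395) and by 0.27 for OM against Cx on LS (5546 and 1842, against 3051 and 2794), and gave 35 and 9 at OM HS21. DESeq2 called 500 raised and 422 lowered at Cx HS14, against 162 and 168, 90 and 20 at OM HS14, against 1 and 0, and 555 and 166 at OM HS21, against 93 and 19. Libraries with equal numbers in both tissues were correlated at -0.075 to 0.45 in their deviations over 15294 genes, over 0.1 in 10 of 15 pairs, and 13 of the 15 correlated best with their own number. Not every pair passed 0.1 and no source ties the numbers to rats, so a pairing was neither established nor excluded, and the tissue fits treat the libraries as separate although kidneys were dissected into both tissues. With the number as a replicate block, 0 members were called in OM against Cx on LS, 0 in the tissue by diet term at HS14 and 0 at HS21, as without it. Leaving out both OM libraries that stand apart was chosen after the data were seen. Depth limits *Cd3d*, *Cd5* and *Cd8b*, which had a library at 0 reads in at least 1 group.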

Other observations

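Variable segments of the T cell receptor itself were also counted, and 6 of them are given here. They were chosen after their values were seen and were too low to test. *Trbv13-1* reads summed to 4, 5 and 25 over the 5 Cx libraries at LS, HS14 and HS21 and to 4, 3 and 25 in the OM. At HS21 all 5 libraries of either tissue had a read. *Trbv1* reads summed to 1, 18 and 33 in the Cx and to 0, 8 and 5 in the OM. *Trbv19* summed to 3, 12 and 27 in the Cx and 3, 5 and 13 in the OM, *Trbv13-2* to 1, 11 and 19 in the Cx and 1, 13 and 12 in the OM, and *Trbv5* to 0, 3 and 14 in the Cx and 2, 2 and 10 in the OM. The delta segment *Trdv5* summed to 8, 12 and 15 in the Cx and 8, 3 and 8 in the OM.

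Members were also compared between Cx and OM libraries of equal number, centred within diet, over 15 numbers. Of 10 members, *Zap70* had a Pearson *r* of 0.65 (permutation, *P* = 0.00447, adjusted *P* = 0.0447) and a Spearman rho of 0.69 (permutation, *P* = 0.00708, adjusted *P* = 0.0447), and *r* was 0.52 without numbers 13 and 15. *Cd2* had *r* of 0.56 (permutation, *P* = 0.0461, adjusted *P* = 0.137) and rho of 0.66 (permutation, *P* = 0.00895, adjusted *P* = 0.0447), and *r* was 0.30 without the same numbers. The other 8 members did not pass after adjustment.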
